A study of Mus musculus with 18 samples.

Results

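The RNA levels of 9 genes for calcium- and glycan-binding proteins, namely 5 S100 genes (S100a4, S100a6, S100a10, S100a11 and S100a13), 2 annexins (Anxa1 and Anxa2) and 2 galectins (Lgals1 and Lgals3), were followed in clonal mouse CD4 T cells of the small intestine. The genes were chosen by name from the 38392 gene rows of the deposited table, and all 9 had a row. The study asked how T cells with 1 shared receptor take up regulatory or intraepithelial identities in the gut. Donors were C57BL/6 TNa TNb RAG1-/- Foxp3GFP mice, a line carrying the rearranged receptor genes of a peripherally induced regulatory T cell (TNa TNb), unable to rearrange other receptors (RAG1-/-) and reporting Foxp3 with green fluorescent protein. Their CD4+ cells without CD8α or the Foxp3 reporter were injected into C57BL/6 TCRa-/- TCRb-/- hosts, which lack αβ T cells of their own but keep other lymphocytes such as γδ T and B cells, and progeny were sorted 6 weeks later. The sorted groups were CD4+CD8α+ cells (DP), CD4+Foxp3+ cells (TR) and CD4+ cells with neither CD8α nor Foxp3 (SP), each from the epithelium (IEL) and from the lamina propria beneath it (LP). The 6 groups, IEL DP, LP DP, IEL TR, LP TR, IEL SP and LP SP, thus share donor line, host line and time, had 3 libraries each, and differ in the gate and the site.

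S100 proteins are small proteins that change shape when they bind calcium and then attach to partner proteins in the cytoskeleton, at membranes or, when secreted, at receptors. Annexins bind membrane lipids in the presence of calcium, and annexin A2 forms a complex with S100A10, an S100 protein that has lost calcium binding, at the inner face of the plasma membrane. Galectins bind galactose-bearing glycans on cell-surface glycoproteins, and galectin-1 and galectin-3 are known for tuning T-cell survival, adhesion and receptor signalling. Several of these genes are usually read as signs of an effector, memory or tissue-resident state in T cells.

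The libraries held 5093955 to 8851347 recovered reads (median 5903164.5). Values below are normalised counts, the deposited unit, in which 1 read was worth about 1 count and a fixed factor per library had been applied. The gates were visible in the RNA: the group mean of Cd8a was 5887 for IEL DP and 3506 for LP DP, with at most 48.1 in the other groups, and that of Foxp3 was 118 for IEL TR and 136 for LP TR, with at most 21.7 elsewhere. The T-cell genes Cd3d, Cd3e, Cd3g, Cd4, Trac and Lck were present in all 18 libraries. The IEL TR libraries agreed less with each other (correlations 0.80 to 0.87 across genes) than those of the other groups (0.92 to 0.94), and IEL TR library 1 stood furthest apart. The comparisons with IEL TR were therefore fitted on the groups compared only, and each is given with library 1 left out where that changed a call.

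The 9 genes fell into 4 patterns, shown in the plot of levels by library. S100a4 and S100a6 were nearly silent in DP cells, intermediate in SP cells and highest in TR cells. S100a10, S100a11, S100a13 and Lgals1 had overlapping DP and SP libraries and higher means in TR cells. Lgals3 ran the other way, with 0.87 to 32.5 counts in TR cells, against 137 to 381 in DP and SP cells. The annexins had no difference called by limma as fitted here. Anxa2 was abundant in every group, with lower means in TR cells (362 in IEL and 545 in LP) than in DP and SP cells (742 to 898). Anxa1 was at or close to 0 in most libraries. In such bulk samples a smaller share of cells with a transcript cannot be told apart from less RNA per cell. Overlap between libraries is given below as a description only. For 3 against 3 libraries without overlap the exact two-sided permutation p is 0.1, and the share of all genes without overlap was not counted.

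**Figure D1:**
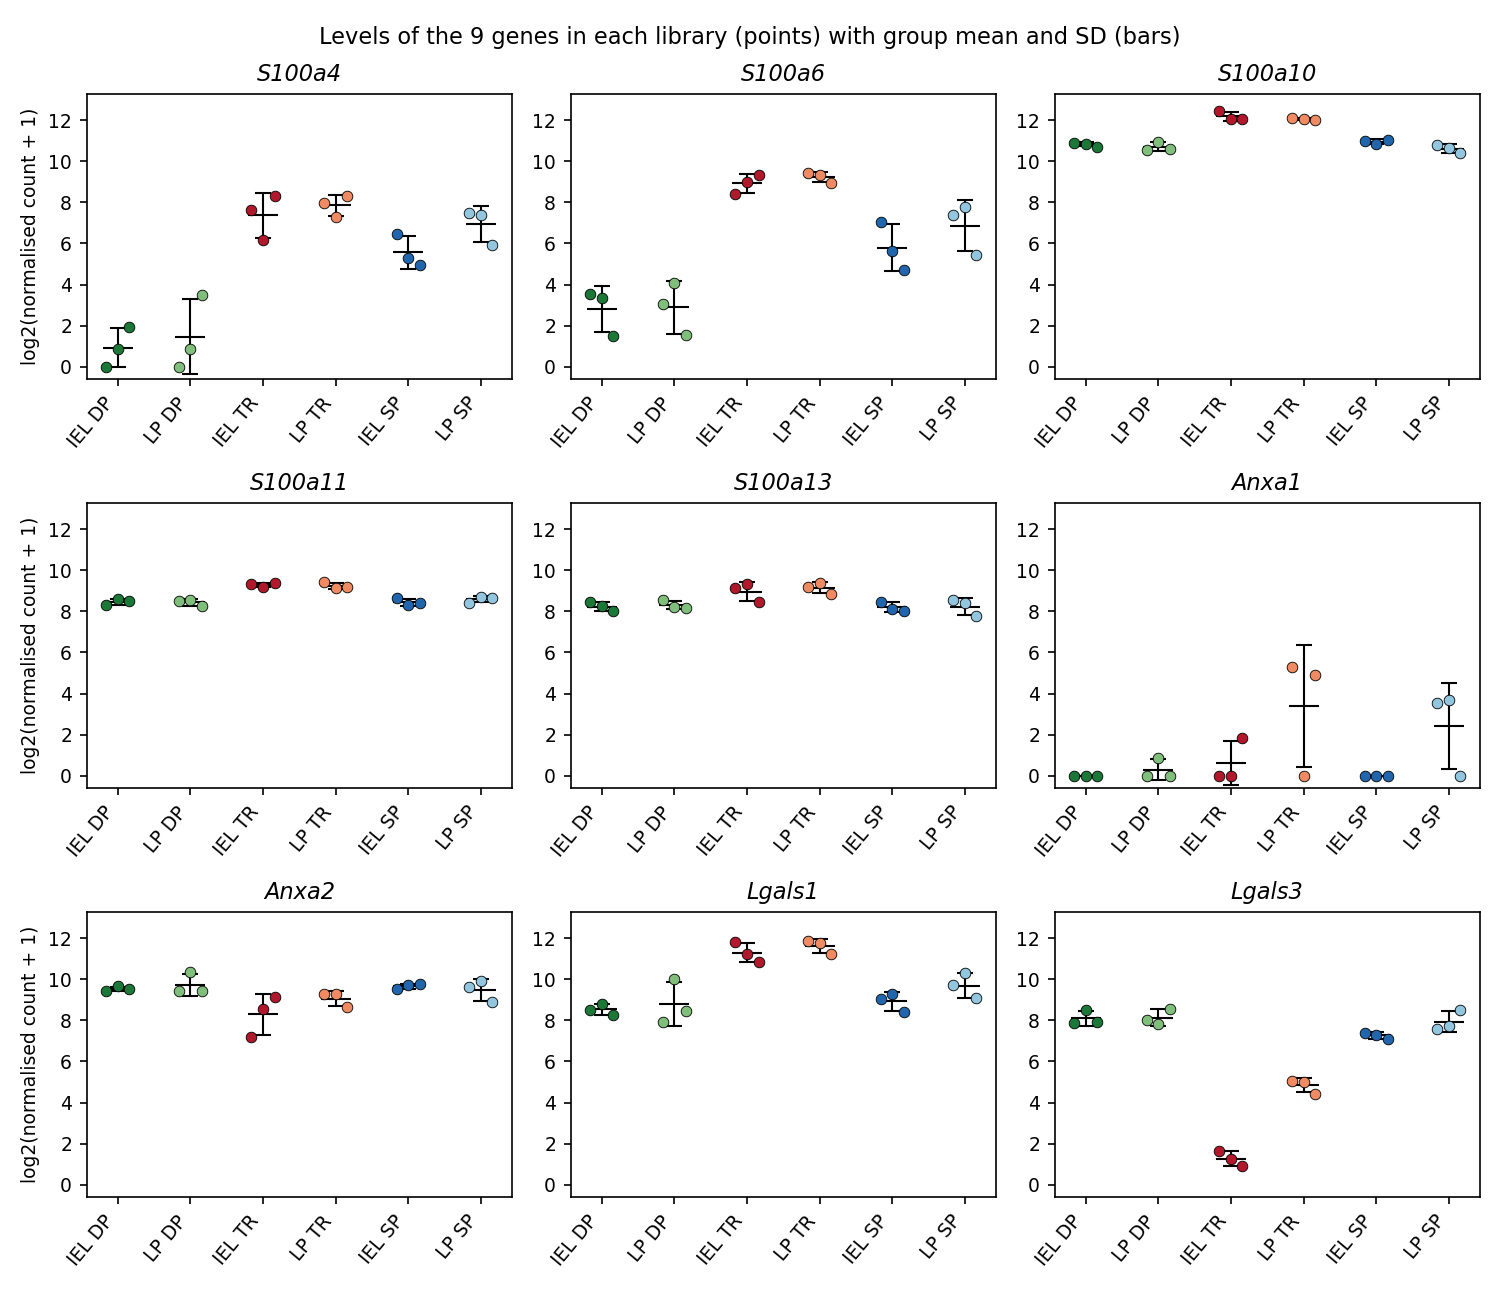
Levels of the 9 genes as log2(normalised count + 1) on the vertical axis, by group on the horizontal axis; points are libraries, and bars are the group mean and SD (n = 3). S100a4 and S100a6 lie lowest in the DP groups, S100a10, S100a11 and Lgals1 lie highest in the TR groups, and Lgals3 lies lowest in IEL TR (0.87 to 2.10 normalised counts).

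S100a4 (ENSMUSG00000001020, GRCm38 chr3:90603771-90606045, plus strand) encodes a calcium-binding protein that attaches to non-muscle myosin and is linked to cell movement. In DP cells it had 0, 0.83 and 2.79 normalised counts in the 3 IEL libraries and 0, 0.85 and 10.4 in the 3 LP libraries. The TR libraries held 194, 70.8 and 319 (IEL) and 251, 158 and 312 (LP), and the SP libraries 87.1, 38.3 and 29.7 (IEL) and 177, 168 and 60.3 (LP). Every DP library lay below every TR and SP library, whereas the TR and SP libraries overlapped in both sites. The DP values rest on 4 reads in the 3 IEL DP libraries and 12 reads in the 3 LP DP libraries, against 158 reads in IEL SP and 428 reads in LP SP. By means, the level in IEL DP was 42.9-fold lower than in IEL SP (1.21 ± 1.43 against 51.7 ± 31.0, SD, n = 3 each), and in LP DP it was 36.1-fold lower than in LP SP (3.74 ± 5.75 against 135 ± 64.9). Library 3 supplied most of the LP DP mean. On the log2(normalised count + 1) scale, where the value of so low a gene depends on the pseudocount, S100a4 fell by 4.63 ± 0.79 (SE) in IEL DP against IEL SP and fell by 5.47 ± 0.79 in LP DP against LP SP (limma, adjusted p = 0.0275 and 0.00511). TR against SP gave 1.80 ± 0.68 in IEL and 0.92 ± 0.79 in LP, neither past the threshold (adjusted p = 0.256 and 0.559). The IEL call was lost when IEL DP library 1 or 2, or any of the 3 IEL SP libraries, was left out (adjusted p 0.0618 to 0.177), and also with edgeR (0.0634) or with only the groups compared in the fit (0.133). The LP call held whichever library was left out, with a log2 difference of -4.74 without LP DP library 1 and -6.49 without LP DP library 3, and was lost with only the groups compared (adjusted p = 0.0774). A pseudocount of 5 gave -3.08 in IEL and -4.05 in LP. In GENCODE M21 an overlapping same-strand gene model, Gm42674, shares 51.7% of the exon bases of S100a4 and had no row of its own in the table, so how reads there were assigned was not tested.

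S100a6 (ENSMUSG00000001025, chr3:90612882-90624181, plus strand) encodes calcyclin, a calcium sensor that binds the ubiquitin-ligase adaptor Cacybp and annexins. In the epithelium it had 10.7, 9.10 and 1.86 normalised counts in DP, 340.4, 511 and 654 in TR, and 129, 49.0 and 25.4 in SP libraries. In the lamina propria it had 7.22, 16.1 and 1.88 in DP, 681, 637 and 489 in TR, and 169, 215 and 42.9 in SP libraries. The order DP below SP below TR held for every library within each site, with no overlap, which describes these libraries and is not a test. S100a6 fell by 3.98 ± 0.78 in LP DP against LP SP (limma, adjusted p = 0.0310), and the IEL difference of -3.00 ± 0.78 missed the threshold (adjusted p = 0.299). TR against SP gave 3.13 ± 0.62 in IEL and 2.35 ± 0.78 in LP, and these also missed it (adjusted p = 0.0579 and 0.0800). The LP DP call was lost without LP DP library 1 or 3 or LP SP library 1 or 2 (adjusted p 0.0845 to 0.132) and with only the groups compared (0.117). Its size was -3.30 without LP DP library 3, -4.59 without LP DP library 2 and -4.69 without LP SP library 3. The IEL TR difference reached adjusted p = 0.0491 without IEL TR library 1. Of the alternative settings that kept all libraries, 3 of 7 called the TR against SP difference in IEL and 4 of 8 that in LP. The DP against SP difference in IEL was called in 2 of 8.

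The 5 S100 genes lie on mouse chromosome 3, where 14 S100 genes with a row lie, and among S100 genes S100a5 lies between S100a4 and S100a6, with 2477 bases to S100a5 on the S100a4 side and 1101 on the S100a6 side. S100a5 itself had 0 reads in all 18 libraries, as had S100a9 (a neutrophil alarmin subunit), while S100a8, its partner subunit, had 2 reads in all. The gap in level between S100a4, S100a6 and the silent gene that sits between them is visible in the plot of the S100 genes in chromosome order. Outside these 5, no S100 gene reached a mean of 50 normalised counts in any group; S100a1, which starts 42 bases from S100a13 on the opposite strand, was the highest of the neighbours at 2.57 to 8.52. Upstream windows of 250 bases, taken from RefSeq (GRCm38.p6) and each ending at the base before a transcript start, are shown for the 2 genes that were nearly silent in DP cells, for S100a11 as an S100 gene whose DP and SP libraries overlapped, and for Lgals3, the gene that was lowest in TR cells. Capitals mark matches, on either strand, to 4 short motifs: the TATA box TATAAA, the AP-1 site TGANTCA, the GC box GGGCGG and the Runx core TGTGGT.
S100a4 (chr3:90603520-90603769, plus strand): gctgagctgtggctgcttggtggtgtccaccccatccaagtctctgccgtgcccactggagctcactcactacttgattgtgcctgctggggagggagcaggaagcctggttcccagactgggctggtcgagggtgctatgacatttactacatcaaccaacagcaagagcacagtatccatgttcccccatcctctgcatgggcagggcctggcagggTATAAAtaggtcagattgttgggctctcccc
S100a6 (chr3:90612644-90612893, plus strand): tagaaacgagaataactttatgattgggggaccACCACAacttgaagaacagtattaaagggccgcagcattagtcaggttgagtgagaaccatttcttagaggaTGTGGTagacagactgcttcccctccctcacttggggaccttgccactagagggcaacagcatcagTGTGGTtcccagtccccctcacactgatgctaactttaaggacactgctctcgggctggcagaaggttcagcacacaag
S100a11 (chr3:93520246-93520495, plus strand): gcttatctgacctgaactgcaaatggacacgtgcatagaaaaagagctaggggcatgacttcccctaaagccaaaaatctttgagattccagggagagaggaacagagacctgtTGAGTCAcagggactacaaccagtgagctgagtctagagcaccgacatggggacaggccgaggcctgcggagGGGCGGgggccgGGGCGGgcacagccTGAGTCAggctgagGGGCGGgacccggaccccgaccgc
Lgals3 (chr14:47373610-47373859, plus strand): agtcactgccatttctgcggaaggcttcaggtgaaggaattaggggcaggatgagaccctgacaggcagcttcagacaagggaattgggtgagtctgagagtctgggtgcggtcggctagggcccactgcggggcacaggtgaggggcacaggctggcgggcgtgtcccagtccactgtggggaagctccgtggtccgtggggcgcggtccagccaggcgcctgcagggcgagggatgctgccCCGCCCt
The S100a4 window held 1 match, a TATA box 31 to 26 bases before the start, and the S100a6 window held 3 matches to the Runx core, 1 of them as its reverse complement. S100a11 had 2 AP-1 matches and 3 GC boxes, and Lgals3 had 1 GC box as its reverse complement. Of 32851 such windows over all genes, 12.4% held the TATA motif, 6.75% the AP-1 motif and 32.7% the GC box, and 4614 of them held the Runx core. S100a4 and S100a6, both lowest in DP cells, shared no match. Windows were found for 7 of the 9 genes, and the RefSeq start of Lgals3 lies inside its longer GENCODE span.

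**Figure D2:**
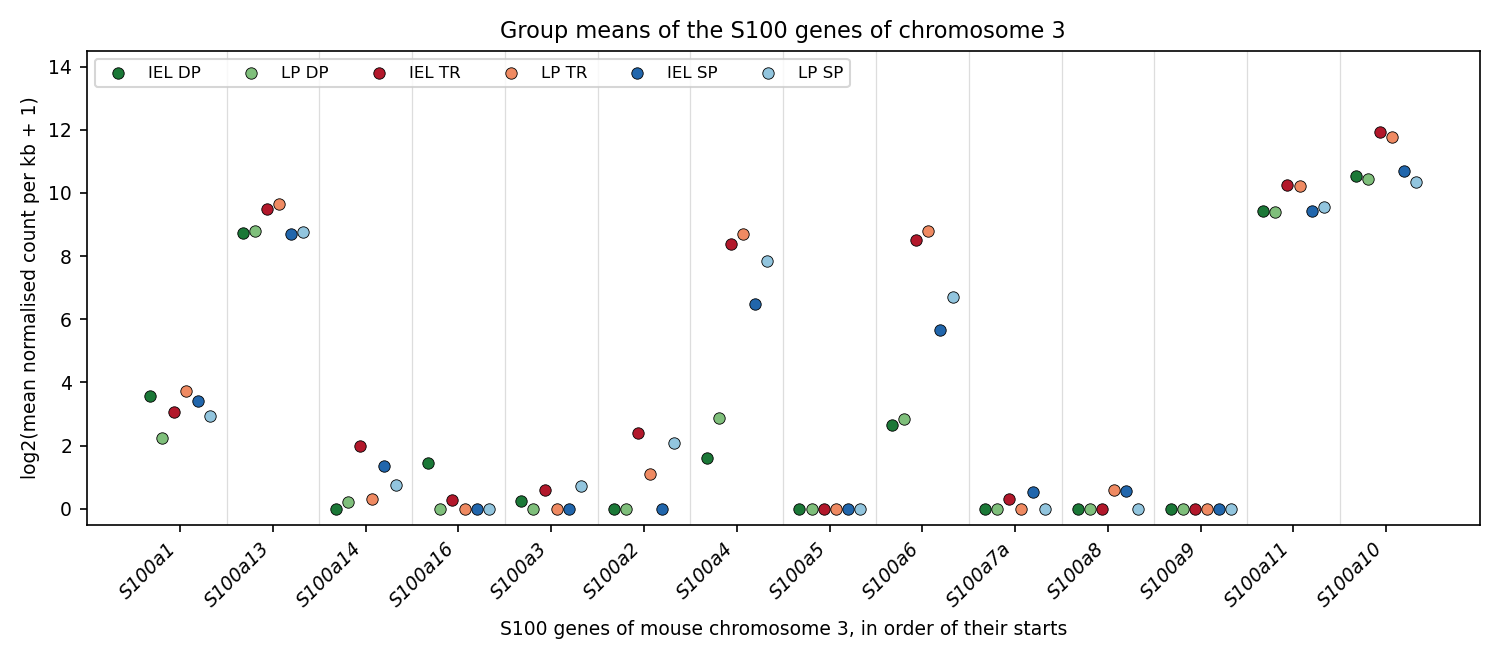
Group means of the 14 S100 genes of chromosome 3 with a row, as log2(mean normalised count per kb of exon + 1) on the vertical axis, in order of their starts on the horizontal axis; each point is the mean of 3 libraries. S100a13, S100a11 and S100a10 stand above the others in every group, S100a4 and S100a6 do so in the TR and SP groups, S100a5 is at 0 in every group, and at S100a4 and S100a6 the DP groups lie below the TR and SP groups.

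S100a10 (ENSMUSG00000041959, chr3:93555080-93564643, plus strand), the annexin A2 partner, was the most abundant of the 5 S100 genes per kb of exon. It had 5591, 4307 and 4297 normalised counts in IEL TR, against 2056, 1807 and 2127 in IEL SP. In the lamina propria the values were 4343, 4262 and 4068 in TR, against 1793, 1585 and 1342 in SP libraries. DP libraries held 1899, 1854 and 1673 (IEL) and 1497, 1981 and 1560.5 (LP). Every TR library was above every other library, and DP and SP libraries of a site overlapped. S100a10 rose by 1.24 ± 0.14 in IEL TR against IEL SP and by 1.43 ± 0.12 in LP TR against LP SP (limma, adjusted p = 0.0117 and 6.6e-06), which are 2.36-fold and 2.70-fold. In DP against SP the differences were -0.14 (95% interval -0.41 to 0.13) in IEL and 0.09 (-0.17 to 0.36) in LP. The IEL TR call was lost when any of the 3 IEL SP libraries was left out (adjusted p 0.0669 to 0.0755) and with the replicate block (0.0538).

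S100a11 (ENSMUSG00000027907, chr3:93520488-93526287, plus strand) encodes calgizzarin, a calcium-dependent partner of annexin A1. Its normalised counts were 634, 575 and 667 in IEL TR, against 397, 315 and 336 in IEL SP libraries, and 688, 569.5 and 573 in LP TR, against 341, 417 and 396 in LP SP. The TR and SP libraries of a site did not overlap. The DP libraries ran from 303 to 384 in both sites, within or next to the SP range. S100a11 rose by 0.66 ± 0.15 in LP TR against LP SP (limma, adjusted p = 0.0107), and the like difference in IEL, 0.84 ± 0.17, missed the threshold (adjusted p = 0.0545). The LP call was lost without LP TR library 1 (adjusted p = 0.0534).

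S100a13 (ENSMUSG00000042312, chr3:90514435-90524581, plus strand) takes part in the export of proteins without a signal peptide, such as interleukin-1α and fibroblast growth factor 1. Its normalised counts were 561, 643 and 345 in IEL TR, against 354, 275 and 261 in IEL SP libraries, and 584, 673 and 464 in LP TR, against 375, 334 and 216 in LP SP. The DP libraries lay between 256 and 371. The LP TR libraries cleared the LP SP libraries, whereas 1 IEL TR library lay within the IEL SP range. S100a13 rose by 0.92 ± 0.22 in LP TR against LP SP (limma, adjusted p = 0.0170), and the IEL difference of 0.76 ± 0.29 did not pass (adjusted p = 0.253). The LP call was lost without LP TR library 1 or 2 or LP SP library 3 (adjusted p 0.0554 to 0.0758) and with only the groups compared (0.0731).

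Anxa2 (ENSMUSG00000032231, chr9:69453620-69491795, plus strand), the membrane-binding partner of S100A10, was called in 0 of the 9 pairwise comparisons by limma as fitted here, by edgeR or by DESeq2, and had an unadjusted limma p under 0.05 in 3 of them. In the epithelium it had 696, 803 and 730.1 normalised counts in DP, 144, 380.2 and 562 in TR, and 733, 838 and 866 in SP libraries. The lamina propria values were 685, 1317 and 693 in DP, 619, 618 and 397 in TR, and 783, 974 and 469 in SP libraries. All 3 IEL TR libraries were below all 3 IEL SP libraries, with a difference of -1.37 ± 0.49 (limma, adjusted p = 0.236) that shrank to -0.81 (adjusted p = 0.0943) without IEL TR library 1, the lowest. With all 18 libraries in 1 limma fit this difference was called (adjusted p = 0.0419). In LP the difference of TR against SP was -0.41 ± 0.28, and the groups overlapped. DP against TR gave 1.24 ± 0.49 in IEL and 0.68 ± 0.28 in LP (limma, adjusted p = 0.260 and 0.145), with no overlap between the groups in either site. DP against SP gave -0.13 in IEL (95% interval -0.73 to 0.48) and 0.27 in LP (-0.34 to 0.87). An antisense gene, Gm16144, covers 2.63% of the Anxa2 exon bases, and the library kit does not mark strand.

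Anxa1 (ENSMUSG00000024659, chr19:20373428-20390944, minus strand), whose protein acts on formyl peptide receptors and restrains inflammation, had 0 reads in all 3 libraries of IEL DP and in all 3 of IEL SP. It had 0, 0.85 and 0 normalised counts in LP DP, 0, 0 and 2.61 in IEL TR, 37.9, 0 and 29.2 in LP TR, and 10.5, 11.9 and 0 in LP SP. Values above 10 were thus seen in 2 of 3 LP TR and 2 of 3 LP SP libraries. At a floor of 3 reads, a library without a read allows up to 2.06 to 3.73 normalised counts, depending on the library. Anxa1 was too low to enter the pairwise fits with IEL TR, and in LP DP against LP TR the difference of -3.10 ± 1.31 did not pass (limma, adjusted p = 0.153), while it did without LP TR library 2, the one at 0 (-4.80, adjusted p = 0.0114). Its size was -2.16 without LP TR library 1 and -2.34 without LP TR library 3.

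Lgals1 (ENSMUSG00000068220, chr15:78926725-78930465, plus strand) encodes galectin-1, which binds glycans on CD45, CD43 and CD7 and can trigger T-cell death. Its normalised counts were 3544, 2394 and 1860.4 in IEL TR, against 534, 628 and 344 in IEL SP libraries, and 3772, 3501 and 2373 in LP TR, against 833, 1265 and 541 in LP SP. In DP cells it stood at 365, 448 and 311 in IEL and 245, 1029 and 350.3 in LP. Every TR library was above every other library. Lgals1 rose by 2.36 ± 0.32 in IEL TR against IEL SP and by 1.93 ± 0.44 in LP TR against LP SP (limma, adjusted p = 0.0208 and 0.0134). DP against SP gave -0.39 in IEL (95% interval -1.34 to 0.56) and -0.89 in LP (-1.85 to 0.06). LP DP library 2 and LP SP library 2 had the most Lgals1, Anxa2, S100a6 and S100a11 of their groups. They also had the most myeloid marker RNA, summed over 16 genes. The sum was 504 in LP DP library 2, against 153.5 and 203 in the other LP DP libraries. In LP SP library 2 it was 730.0, against 265 and 306 in the other LP SP libraries. Of the 16 genes, the neutrophil genes S100a8, S100a9 and Ly6g were at 0 in every LP DP and LP SP library. All the others had reads in both LP DP and LP SP. The part of myeloid RNA in the Lgals1, Anxa2, S100a6 and S100a11 values was not tested. The IEL call was lost without any of the 3 IEL SP libraries (adjusted p 0.0719 to 0.0977) and the LP call without LP TR library 1 or LP SP library 3 (0.0531 and 0.0624).

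Lgals3 (ENSMUSG00000050335, chr14:47367751-47386160, plus strand) encodes galectin-3, which clusters surface glycoproteins into lattices and limits the movement of the T-cell receptor. It had 2.10, 1.37 and 0.87 normalised counts in IEL TR, against 167, 157 and 137 in IEL SP libraries, and 32.5, 31.1 and 20.7 in LP TR, against 192, 209.7 and 366 in LP SP. In DP cells it stood at 232, 359 and 243 in IEL and 259.8, 224 and 381 in LP. The IEL TR value rests on 5 reads over 3 libraries, against 475 reads in IEL SP, and the 2 TR groups did not overlap with each other or with any other group. Lgals3 fell by 6.01 ± 0.37 in IEL TR against IEL SP and by 3.11 ± 0.29 in LP TR against LP SP (limma, adjusted p = 0.00228 and 1.31e-05), and both calls held whichever library of the compared groups was left out. The IEL difference was -4.62 with a pseudocount of 5 and -6.79 with DESeq2. DP against SP gave 0.83 ± 0.29 in IEL, with no overlap between the groups, and 0.20 ± 0.29 in LP, with overlap (adjusted p = 0.531 and 0.900). The difference between the sites in TR cells was -3.58 ± 0.55 (IEL minus LP), and the test that the TR effect itself depends on the site gave -2.90 ± 0.48. Both narrowly missed the threshold (adjusted p = 0.0563 and 0.0523), and both passed it without IEL TR library 1 (0.0443 and 0.0296), the second also without IEL TR library 3 (0.0492).

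**Figure D3:**
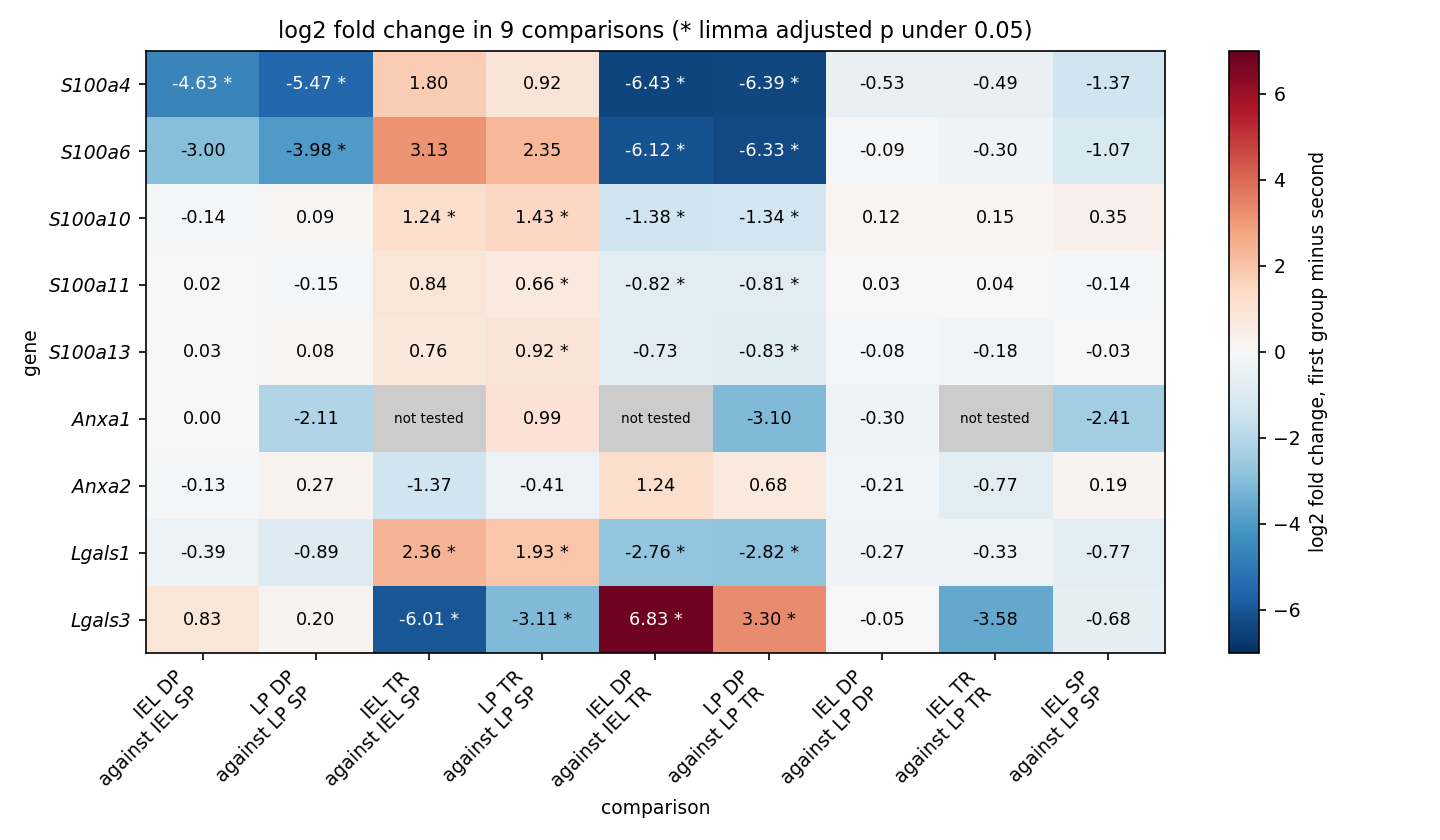
log2 fold changes of the 9 genes (rows) in the 9 pairwise comparisons (columns), the first-named group minus the second; an asterisk marks a limma adjusted p under 0.05 and grey marks genes too low to enter the fit. The DP against TR columns hold the most asterisks (6 in IEL and 7 in LP), and the 3 site columns hold none.

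Set against the SP cells they share a site with, DP cells differed in few of the 9 genes. In IEL 1 of 9 was called (S100a4, lower), where 0.217% of 15173 genes tested were called (0.171% lower and 0.0461% higher), and in LP 2 of 9 were called (S100a4 and S100a6, both lower), where 0.784% of all genes were (0.527% lower and 0.257% higher). The median of the 9 log2 fold changes was -0.13 in IEL and -0.15 in LP, beside 0.00054 and -0.0070 over all genes. Anxa1, with 0 reads in IEL DP and in IEL SP, is counted among the 9 in IEL though it could not be called there. In LP the DP libraries also held less RNA of innate lymphoid markers than the SP libraries: 7 such genes (without Il7r, which T cells share) summed to 41.4 to 84.5 in LP DP, against 248 to 740 in LP SP. The myeloid sums, 153.5 to 504 in LP DP against 265 to 730.0 in LP SP, overlapped. The stroma sums, 127 to 194 in LP DP against 246 to 250 in LP SP, did not overlap. In IEL the innate lymphoid sums overlapped (55.8 to 81.2 in IEL DP, against 46.7 to 162 in IEL SP). IEL SP library 1, the one at 162, also had the most S100a4 and S100a6 of its group. The part of such RNA in the DP against SP differences was not tested in either site.

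TR cells differed from SP cells in more of them. In IEL 3 of the 8 genes tested were called, S100a10 and Lgals1 higher and Lgals3 lower, where 3.25% of 13790 genes were called (1.76% higher and 1.49% lower), and in LP 5 of 9 were called, S100a10, S100a11, S100a13 and Lgals1 higher and Lgals3 lower, where 9.33% of all genes were called (4.83% higher and 4.49% lower). The medians were 1.04 over the 8 genes in IEL and 0.92 over the 9 in LP, beside -0.041 and -0.011 over all genes. An unadjusted p under 0.05 was found for 8 of 8 genes in IEL (2342 of all 13790) and 6 of 9 in LP (3395 of all 15173). The summed RNA of 8 B-cell markers was 102 to 573 in LP TR, against 2.34 to 22.0 in LP SP, with no overlap, and 9.45 to 264 in IEL TR, against 2.00 to 27.2 in IEL SP, with overlap. Other marker sums were lower in LP TR than in LP SP, also with no overlap. The innate lymphoid markers without Il7r summed to 49.7 to 75.7 in LP TR, against 248 to 740 in LP SP. The myeloid sums were 157 to 194 in LP TR, against 265 to 730.0 in LP SP. Those of 11 stroma markers were 151 to 160 in LP TR, against 246 to 250 in LP SP. In IEL TR against IEL SP these sums overlapped. The part of such RNA in these results, Lgals3 among them, was not tested.

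DP against TR cells gave the most calls among these 9 genes. In IEL 6 of 8 genes were called, where 4.77% of 13730 genes were called (2.79% lower and 1.98% higher): S100a4 (-6.43 ± 0.76), S100a6 (-6.12 ± 0.63), S100a10 (-1.38 ± 0.13), S100a11 (-0.82 ± 0.16) and Lgals1 (-2.76 ± 0.27) were lower in DP cells and Lgals3 (6.83 ± 0.38) was higher (limma, adjusted p 0.00106 to 0.0473). In LP 7 of 9 were called, where 13.1% of all genes were called (7.56% lower and 5.51% higher), the same 6 genes with log2 fold changes of -6.39, -6.33, -1.34, -0.81, -2.82 and 3.30 in that order, and S100a13 with -0.83 ± 0.22 (limma, adjusted p 4.47e-06 to 0.0219). S100a13 in IEL gave -0.73 ± 0.28, past no threshold (adjusted p = 0.245). These comparisons share their DP and TR libraries with those against SP, so they are not a separate line of evidence. The IEL call of S100a11 was lost without any 1 of the 6 libraries (adjusted p 0.0630 to 0.171) and that of S100a4 without IEL DP library 1 or 2 (0.0514 and 0.0632). In LP, S100a13 was lost without LP DP library 2 or 3 or LP TR library 1 or 2 (0.0648 to 0.0942) and with all 18 libraries in 1 fit (0.0559). The IEL call of S100a11 was also lost with no filter, equal totals, edgeR or the replicate block (0.0565 to 0.176), and that of S100a6 with the replicate block (0.0511). In LP the S100a4 difference was -5.66 without LP DP library 1 and -7.42 without LP DP library 3, that of S100a6 was -6.94 without LP DP library 2 and -5.65 without LP DP library 3, and that of Lgals1 was -3.42 without LP DP library 2. In IEL that of S100a4 was -7.03 without IEL TR library 2 and that of S100a6 was -5.48 without IEL DP library 3. B-cell marker RNA summed to 19.5 to 50.9 in LP DP, against 102 to 573 in LP TR, and to 20.3 to 32.3 in IEL DP, against 9.45 to 264 in IEL TR. Of 11 epithelial markers tested in IEL DP against IEL TR, 2 were higher and 1 lower (list median 1.52), with sums of 547 to 2254 in IEL DP, against 524 to 868 in IEL TR. The part of either in these results was not tested.

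Between the sites none of the 9 genes was called. By limma, 0 of 9 were called in IEL DP against LP DP (9.75% of all genes called, 4.21% higher and 5.54% lower), 0 of 8 in IEL TR against LP TR (0.636% of 13680 genes, 0.0365% higher and 0.599% lower) and 0 of 9 in IEL SP against LP SP (10.1%, 4.34% higher and 5.78% lower), and 0, 1 and 2 of them had an unadjusted p under 0.05 in that order. Both edgeR and DESeq2 on recovered reads called 0, 1 and 0, the 1 being Lgals3. In SP cells the unadjusted pair was S100a10, higher by 0.35 ± 0.12 in IEL SP, and Lgals3, lower there by 0.68 ± 0.29 (limma, adjusted p = 0.0958 and 0.166). S100a4 in SP cells gave -1.37 ± 0.79 (IEL minus LP, adjusted p = 0.318), with overlapping libraries. The test that the DP effect depends on the site called 0 of 9 genes and 0% of all genes (0 of 9 and 962 of 15173 at an unadjusted p under 0.05; edgeR called 0 genes and DESeq2 31, none of them among the 9). The test that the TR effect does called 0 of 9 and 0.167% of 14960 genes (0.114% higher and 0.0535% lower), with Lgals3 alone under an unadjusted 0.05 and called by both edgeR and DESeq2. In epithelial marker RNA the IEL groups were higher, with sums of 547 to 2254 in IEL DP, against 306 to 512 in LP DP, and of 524 to 868 in IEL TR, against 204 to 382 in LP TR.

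Pairs of genes whose proteins act together or on the same glycans had another balance in TR cells than in DP and SP cells, as the plot of both pairs by library shows. Per kb of exon, the level of S100a10 was 23.5 to 119.6 times that of Anxa2 in the IEL TR libraries and 21.2 to 31.5 times in the LP TR libraries, against 4.63 to 8.80 times in the 12 DP and SP libraries. The level of Lgals1 was 3472 to 4400 times that of Lgals3 per kb in IEL TR and 232 to 239 times in LP TR, against 1.89 to 9.44 times in DP libraries and 3.04 to 12.4 times in SP libraries. The IEL TR ratios rest on 2, 2 and 1 reads of Lgals3 in libraries 1 to 3, so their size is imprecise. In both pairs the 6 TR libraries lay apart from the 12 others. Such ratios show unequal change of 2 genes within a library and do not say which of them moved.

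**Figure D4:**
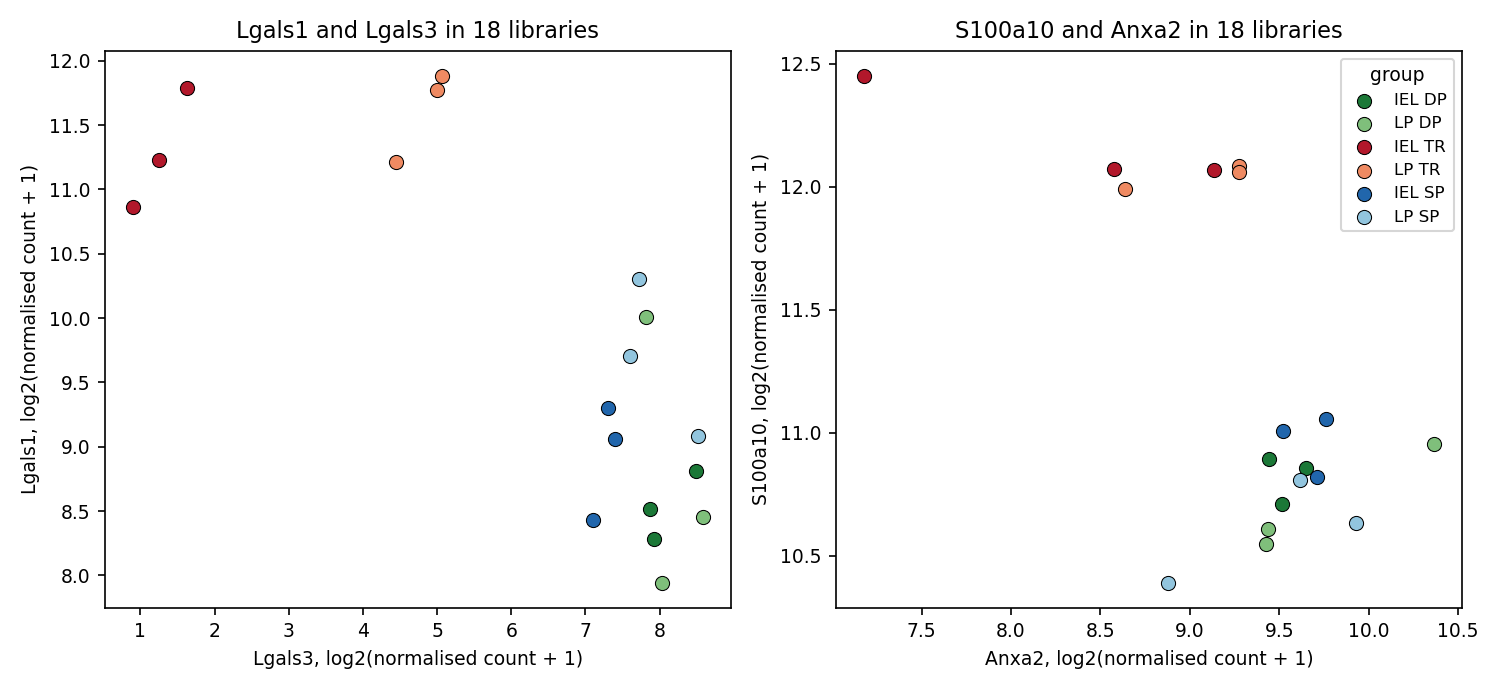
Lgals1 against Lgals3 (left) and S100a10 against Anxa2 (right) in the 18 libraries, both axes as log2(normalised count + 1); each point is 1 library, coloured by group. The 6 TR libraries stand above the others in both panels, and the IEL TR libraries stand furthest left for Lgals3 (0.87 to 2.10 normalised counts).

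Of the further annexins and galectins, 8 had a mean of at least 50 normalised counts in some group: Anxa4, Anxa5, Anxa6, Anxa7, Anxa11, Lgals4, Lgals8 and Lgals9. Anxa4, a lipid-binding annexin of membranes, averaged 514 in LP TR, against 187 in LP SP and 179 in LP DP. It rose by 1.45 ± 0.20 in LP TR against LP SP (limma, adjusted p = 0.000401), where 9.33% of all genes were called. In LP DP against LP TR, where 13.1% of all genes were called, 1 of 7 annexins tested was called. It was lower, and was neither Anxa1 nor Anxa2. Anxa5, the annexin known for binding phosphatidylserine, averaged 624 in IEL DP against 1227 in IEL TR. It fell by 0.96 ± 0.17 there (limma, adjusted p = 0.0345), where 4.77% of all genes were called. Between sites, Anxa4 (0.77 ± 0.20), Anxa7 (0.61 ± 0.18) and Lgals4 (1.89 ± 0.53) rose in IEL DP against LP DP (limma, adjusted p = 0.0269, 0.0483 and 0.0404), where 9.75% of all genes were called. Lgals4, an intestinal epithelial galectin, averaged 162 in IEL DP against 46.3 in LP DP, and 6 other epithelial markers rose there as well, so the share of epithelial RNA in it was not tested. Anxa6, Anxa11, Lgals8 and Lgals9 were called in no pairwise comparison. The pseudogenes S100a11-ps, Lgals1-ps1 and Lgals1-ps2 have rows of their own. How reads that match both a pseudogene and S100a11 or Lgals1 were assigned was not tested.

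Of 28 partners, targets and receptors of these proteins, 12 to 16 were abundant enough to test in a pairwise comparison. The share of all genes called was 0.217% in IEL and 0.784% in LP for DP against SP, 3.25% and 9.33% for TR against SP, and 4.77% and 13.1% for DP against TR. In DP against SP cells 0 of 16 were called in IEL (6 at an unadjusted limma p under 0.05, and 0 by edgeR and DESeq2) and 3 of 16, all lower, in LP, with medians of -0.047 and 0.013. They were Plat (tissue plasminogen activator, a ligand of the S100A10 complex), at 0 in all LP DP libraries against 36.6 in LP SP, and the glycoproteins Cd44 (-1.01 ± 0.17) and Itgb1 (-1.37 ± 0.27; limma, adjusted p = 0.00736, 0.0136 and 0.0337). In TR against SP cells 1 of 12 fell in IEL, and in LP 1 of 16 rose and 4 fell. Cd7, a galectin-1 receptor, averaged 124 in IEL TR against 1180 in IEL SP libraries, and 43.2 in LP TR against 468 in LP SP, and fell by 3.37 ± 0.44 and 3.53 ± 0.39 (adjusted p = 0.0189 and 6.57e-05). The others with the smallest p in LP were Plat, which averaged 0.36 in LP TR against 36.6 in LP SP, and Havcr2, the galectin-9 receptor Tim-3, which rose by 3.21 ± 0.57 (adjusted p = 0.0017 and 0.00266). In DP against TR cells Cd7 was the 1 of 13 called in IEL by limma (4.21 ± 0.41; edgeR called 1 and DESeq2 4), and in LP 4 of 16 rose and 2 fell, led by Cd7 (5.11 ± 0.39), Cd44 (-0.97 ± 0.17) and Havcr2 (-2.79 ± 0.57). Between sites, Cd69, a tissue-retention receptor, fell by 1.88 ± 0.25 in IEL DP against LP DP and by 1.86 ± 0.25 in IEL SP against LP SP (adjusted p = 0.000375 and 0.000355), as did Ahnak, the scaffold that S100A10 and annexin A2 bind, in IEL DP (-0.81 ± 0.19, adjusted p = 0.0179). In those 2 comparisons, where 9.75% and 10.1% of all genes were called, 1 of 16 rose and 3 fell in DP cells, among them Mgat5 (-1.80 ± 0.39), which builds the glycans galectin-3 prefers, and 2 rose and 5 fell in SP cells, led by Cd69, Plat and Cd44 (-0.89 ± 0.17). In IEL TR against LP TR, where 0.636% of all genes were called, 0 of 14 were called by limma (6 at an unadjusted p under 0.05, 0 by edgeR and 4 by DESeq2).

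Of 25 cytoskeletal and membrane-linker genes of effector T cells, 22 to 25 were tested in each pairwise comparison, beside the same shares of all genes. In DP against SP cells 0 of 25 were called in IEL (3 at an unadjusted limma p under 0.05, 0 by edgeR and 1 by DESeq2), and 1 fell in LP, Capg (-1.58 ± 0.34, adjusted p = 0.0467), which encodes an actin-capping protein. In TR against SP cells 2 of 22 rose in IEL, Capg and Tpm3, and 5 of 25 rose and 3 fell in LP, led by Capg, Emp3 (1.59 ± 0.20) and the intermediate filament gene Vim (1.44 ± 0.28). Capg, the strongest of them, averaged 6796 in IEL TR against 123 in IEL SP libraries, and 5523 in LP TR against 113 in LP SP, and rose by 5.76 ± 0.20 and 5.67 ± 0.34 (limma, adjusted p = 0.000903 and 2.27e-07). In DP against TR cells 2 of 23 fell in IEL, Capg (-6.72 ± 0.34) and Tagln2 (-1.70 ± 0.25), and 2 of 25 rose and 9 fell in LP, where 13.1% of all genes were called, led by Capg (-7.26 ± 0.34), Myl6 (-0.61 ± 0.09) and, in the other direction, the membrane linker Rdx (1.01 ± 0.15). Between sites, Tpm4 and Lmna fell in IEL DP against LP DP (-2.33 ± 0.42 and -2.56 ± 0.73), the 2 of 25 called by limma, where 9.75% of all genes were called (edgeR called 1 of the 25 and DESeq2 7). In IEL SP against LP SP, where 10.1% of all genes were called, 1 of 25 rose and 3 fell, the lowest p belonging to Lmna (-4.38 ± 0.73), Tpm4 (-2.20 ± 0.42) and Tpm3 (-0.64 ± 0.14), and 0 of 23 were called in IEL TR against LP TR by limma (2 at an unadjusted p under 0.05, and 0 by edgeR and DESeq2). The medians of the list ran from -0.41 to 0.36 over the pairwise comparisons.

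The genes with the most similar profiles were sought among 15463 genes for the 4 genes with the widest range of group means, by the root mean squared difference of centred log2(normalised count + 1) over the 18 libraries. For S100a4 they were Ptger2, a prostaglandin E2 receptor, A630023P12Rik and Zbtb7b, the transcription factor of CD4 lineage identity (differences 1.05, 1.27 and 1.34, against a spread of 2.93 in S100a4 itself). Ptger2 averaged 0.62 in IEL DP and 0.31 in LP DP, 75.8 in IEL TR and 113 in LP TR, and 15.2 in IEL SP and 33.0 in LP SP. For S100a6 they were Tiam1, a Rac exchange factor, the chemokine receptor Ccr2 and the arginine-synthesis enzyme Ass1 (1.05, 1.07 and 1.13, spread 2.70). Ccr2 averaged 57.0 in IEL DP and 60.8 in LP DP, 1875 in IEL TR and 5784 in LP TR, and 158 in IEL SP and 412 in LP SP. For Lgals3 they were the transcription factor Hlf, the lipid flippase Atp8a2 and Litaf, a protein of the endosomal membrane (0.69, 0.93 and 0.95, spread 2.53). Hlf averaged 1.97 in IEL TR, against 158 in IEL SP libraries, and 24.9 in LP TR, against 169 in LP SP, with 198 in IEL DP and 252 in LP DP cells. Anxa1 had Slc44a1, Gprc5a and Zc2hc1c (1.06, 1.17 and 1.28, spread 1.82), which were as close to 0 in most libraries as Anxa1 itself.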

How the data were processed

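The series holds 18 sequencing libraries of T cells sorted from mouse gut. The submitters' processing notes list TopHat, HTSeq and mm10 (GRCm38), with no versions, and the library kit, Nextera XT per the labels' protocols, does not mark strand. What the authors deposited is a normalised signal, each gene's read count times a factor of the library. Reads came out whole, within 0.1 of a read's worth, for 100% of the values checked, which left out the highest ones. An exception is the factor of IEL SP library 1, 1.00139, which is too near 1 for low values to show it. The labels call the libraries biological replicates and name no animals, so the p-values cover only the variation among these libraries, which may be technical, and counting floors cover counting error only.

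Values were tested as log2(value + 1) with limma 3.58.1 (R 4.3.3, trended, robust), over all genes that reached 10 in 3 or more libraries of a fit. The threshold was a Benjamini-Hochberg adjusted p of 0.05. Comparisons without IEL TR came from 1 fit of the other 5 groups. Those with IEL TR, whose common dispersion was 0.505 against 0.0849 to 0.112 in the other groups, used the groups compared, or 4 groups for the TR interaction. Exact permutation of 3 against 3 libraries cannot go below 0.1, so none was run. The fit was tested on simulated data. The genes, lists and fits were chosen with earlier results of these data known. The 9 genes are named throughout, other family genes where a group mean reached 50, genes of the other 2 lists where called and among the 3 smallest p of a comparison, and the 3 most similar genes of the 4 widest-ranging genes. Alternatives were a pseudocount of 5, no filter, equal totals, all 18 libraries in 1 fit, edgeR 4.0.16 and DESeq2 1.42.0 on recovered reads, a replicate block, only the groups compared, and each library left out. Gene models were GENCODE M21, and levels per kb used the union of exons.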

Additional observations from a re-analysis of the deposited data

How the results depend on the processing

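Of the 24 called differences among the 9 genes, 0 turned sign in any setting, 16 stayed called in every setting that kept all libraries, 14 whichever library was left out, and 12 in all. Of 64 differences never called in any setting, 23 turned sign in some setting. The number of the 9 genes called in IEL DP against IEL SP was 1, against 0 with edgeR or with only the groups compared and 2 with DESeq2 or the replicate block. In LP DP against LP SP it was 2, against 0 with only the groups compared. In IEL TR against IEL SP it was 3, against 6 with all 18 libraries in 1 fit and 5 with DESeq2. In IEL TR against LP TR it was 0, against 1 with a pseudocount of 5, no filter, all 18 libraries, edgeR or DESeq2. For the TR interaction it was 0, against 1 with all 18 libraries, edgeR or DESeq2. With each library left out in turn the count ran from 0 to 1 in IEL DP against IEL SP, 1 to 2 in LP DP against LP SP, 1 to 4 in IEL TR against IEL SP, 2 to 5 in LP TR against LP SP, 4 to 5 in IEL DP against IEL TR, 6 to 7 in LP DP against LP TR, and 0 to 1 in IEL TR against LP TR and in the TR interaction. Uncalled LP DP against LP SP differences turned sign with a library left out, ranging from -0.032 to 0.19 for S100a10, -0.15 to 0.25 for S100a13, -0.043 to 0.50 for Anxa2 and -0.023 to 0.48 for Lgals3. Called genes of the whole table varied more: 33 in IEL DP against IEL SP (8 with only the groups compared, 110 with DESeq2), 119 in LP DP against LP SP (46 and 363), 448 in IEL TR against IEL SP (72 with the replicate block, 1799 with all 18 libraries), 655 in IEL DP against IEL TR (256 and 2170), 87 in IEL TR against LP TR (0 and 1008) and 25 for the TR interaction (13 with equal totals, 188 with DESeq2). With all 18 libraries in 1 fit LP TR against LP SP had 874 in place of 1415, IEL DP against LP DP 847 in place of 1480, and IEL SP against LP SP 862 in place of 1535. The cause was not tested. Equal totals moved the median of all genes by -0.15 in IEL TR against IEL SP, 0.18 in IEL DP against IEL TR and -0.10 in the TR interaction, and turned no called direction among the 9 genes. Residual correlations between libraries of the same replicate number were weak but all above 0 (0.00053 to 0.0887 over 45 pairs, median 0.0385, 0 over 0.1). All 18 libraries correlated best with their own number. What the numbers share was not tested, and the fits leave them out except in the replicate block. With the replicate block, S100a6 was called in IEL DP against IEL SP and in LP TR against LP SP, and S100a10 in IEL TR against IEL SP and S100a6 and S100a11 in IEL DP against IEL TR were not. Depth limits S100a4 in DP cells, Lgals3 in IEL TR and Anxa1, which rest on a few reads per library.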
